A study of Homo sapiens with 52 samples.

Results

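Chromosome 3 was examined as a set of 1951 bins of 100 kb, of 26584 measured bins in all. The members were all bins of this chromosome with a value in every cell, on the hg19 build. They are 1951 of the 1981 bins listed for it. The series mapped contacts with the nuclear lamina in single KBM7 cells, an established human chronic myeloid leukaemia line. All cells came from clone 14, had a ploidy of 2N and carried Dam fused to LaminB1. Per the labels' protocols they received 0.5 nM Shield1 for 15 h and were sorted singly from the double-positive Fucci gate, taking the 2% of smallest size, so they stand for 1 clone and 1 size class.

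The nuclear lamina is a protein meshwork under the inner nuclear membrane, and Lamin B1 is one of its main components. Long stretches of chromosomes, known as lamina-associated domains, lie against it, and they are usually poor in genes and weakly transcribed. In DamID the bacterial enzyme Dam, fused to a lamina protein, methylates adenines of DNA that comes close, and the methylated fragments are amplified and sequenced. Centromeres consist of long repeat arrays, which in hg19 are a gap in the sequence.

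Each value was a ratio of observed to expected signal (OE) in 1 bin of 1 cell. Contact was called where OE was 1 or more. For each bin, contact frequency gives the percentage of the 51 analysed cells that were in contact there. The cells formed 1 group with no separate cultures named. They count as 1 sample, so no p-value is given and each SD describes the spread between these cells. Whole reads could be recovered from the ratios, and their median was 142540 per cell. The shallowest was cell 9 (50978 reads) and the deepest cell 26 (316463). An OE of 1 in a bin of median expected signal on chromosome 3 corresponded to 2.14 reads in the shallowest cell and 13.3 in the deepest.

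Cell 42 stood apart on this chromosome in its reads, and cell 48 had the lowest share in contact. Chromosome 3 held 8.91% ± 1.68 (SD, n = 51) of a cell's reads, but 17.5% in cell 42. The next highest was cell 43, at 12.0%, and the lowest was cell 48, at 5.89%. The median OE of contacted bins of chromosome 3 was 4.42 in cell 42, against a median of 2.54 over cells, so its ratios on this chromosome were high as well. What part this has in the results was not tested beyond leaving the cells out. Without cell 42, and separately without cell 48, none of the 8 values of the whole chromosome recomputed for the closing section moved by more than the spread between cells.

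How much of chromosome 3 touched the lamina was measured first. Contact covered 37.2% ± 4.81 (SD, n = 51) of its bins, with a median of 37.8%. Cell 48 was lowest, at 24.4% (95% Wilson interval, 22.6% to 26.4%). Cell 26 was highest, at 50.0% (47.8% to 52.2%). Such intervals cover counting error over bins only and treat neighbouring bins as independent. The share exceeded that of the cell's own genome by 5.73 points ± 3.85 and lay above it in 47 of 51 cells. Cells 6, 13, 38 and 48 were the exceptions. In mean share chromosome 3 ranked 4 from the highest among the 22 chromosomes and joined chromosomes of the table. At an OE of at least 2 its share was 24.3%.

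Of the next chromosomes in number, 4 was contacted more and 5 about as much. Chromosome 4 was contacted in 43.6% ± 4.94, and chromosome 3 was lower than it by a mean difference of -6.35 points ± 5.01, with this direction in 46 of 51 cells. Chromosome 5 was contacted in 36.9% ± 5.73. The difference from chromosome 3 was 0.301 points ± 6.89, positive in 26 cells and negative in 25. Its largest value, 32.5 points, was that of cell 42, which had contact in 10.2% of chromosome 5. Without that cell the difference turned to -0.34 points ± 5.18, with 25 cells in each direction, so the totals of these chromosomes differed by less than the spread between cells.

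Contact was divided into bins touched by most cells and bins touched by almost none. At least 80% of cells had contact in 535 bins (27.4%), against 20.9% of all measured bins of the genome. No cell had contact in 690 bins (35.4%; genome 38.7%). Reads were missing from 122 of them in every cell, and for the other 568 a count of 0 in 51 cells allows a share of up to 5.88%, a limit that covers counting error only and ignores that the bins were selected on that count. A further 410 bins (21.0%; genome 22.1%) lay above 20% and under 80%. The share of bins of intermediate frequency was thus close to that of the genome, while bins of high frequency were more common. Chromosomes 4 and 5 also exceeded the genome at 80% of cells, with 32.0% and 26.2% of their bins. Bins without contact in any cell made up 21.2% and 29.4% of theirs, less than on chromosome 3. Where contact needed an OE of 2 or more, only 7.02% of the bins of chromosome 3 reached 80% of cells.

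Signal rose with frequency. Bins contacted in over 80% of cells had a median OE, where contacted, of 2.88 ± 0.540 (SD, n = 51), those above 20% and up to 80% had 1.93 ± 0.261, and those above 0 and up to 20% had 1.45 ± 0.231. The same classes over the genome gave 2.85, 1.98 and 1.44. Frequency and signal come from the same ratios and are not separate measures.

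**Figure D1:**
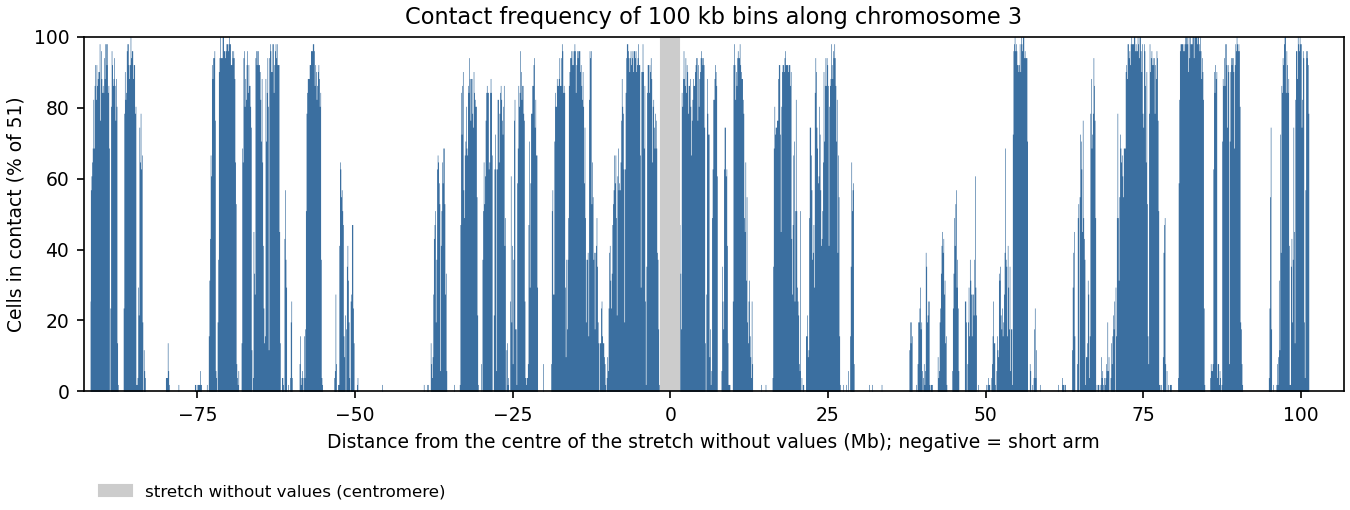
Contact frequency of each 100 kb bin of chromosome 3 (percent of 51 cells, vertical axis) against the distance from the centre of the stretch without values in Mb, with the short arm at negative distances. Blocks of bins contacted in over 80% of cells alternate with long stretches near 0, and blocks flank the grey stretch without values on both sides.

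Contact and its absence alternated along the chromosome, and windows of 10 Mb, which average over shorter blocks of contact, differed widely. In windows of 10 Mb, the mean share was lowest from 120 to 130 Mb, where 3.14% ± 2.01 (SD, n = 51) of bins were contacted, and from 40 to 50 Mb, with 4.86% ± 4.58. It was highest from 20 to 30 Mb, with 71.7% ± 9.05. There the lowest cell had 32.0%, the median was 75.0% and the highest was 82.0%. No cell had more than 8.00% in the window from 120 to 130 Mb. The windows named here were picked by their means among the 20, so their separation follows in part from that choice.

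Cells differed most in the windows from 60 to 100 Mb, which lie on the short arm and across the centromere gap. From 60 to 70 Mb contact covered 52.9% ± 15.5, and single cells ranged from 2.00% in cell 6 to 75.0%. Next to it, from 70 to 80 Mb, the mean was 57.5% ± 12.4, with 6.00% in cell 6. From 80 to 90 Mb the mean was 60.1% ± 14.7, with 22.0% in cell 48 and 94.0% in cell 26. The window from 90 to 100 Mb, which spans the gap, had 62.0% ± 13.8, from 9.72% in cell 48 to 76.4%. The next window, from 100 to 110 Mb and wholly on the long arm, had 37.5% ± 10.0. Spread was much smaller from 170 to 180 Mb on the long arm. There contact covered 50.3% ± 4.12, and all cells lay between 41.0% and 57.0%. Of the 9 windows with a mean over 50%, this one had the smallest SD.

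Windows of low mean could still be occupied in some cells. From 130 to 140 Mb, contact covered 14.0% ± 12.2, with 0 in the lowest cell, a median of 11.0% and 44.0% in cell 41. The window from 150 to 160 Mb gave 16.0% ± 7.67, from 1.00% to 30.0%. In contrast, from 10 to 20 Mb the mean was 8.24% ± 2.87 and the highest cell reached 17.0%.

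**Figure D2:**
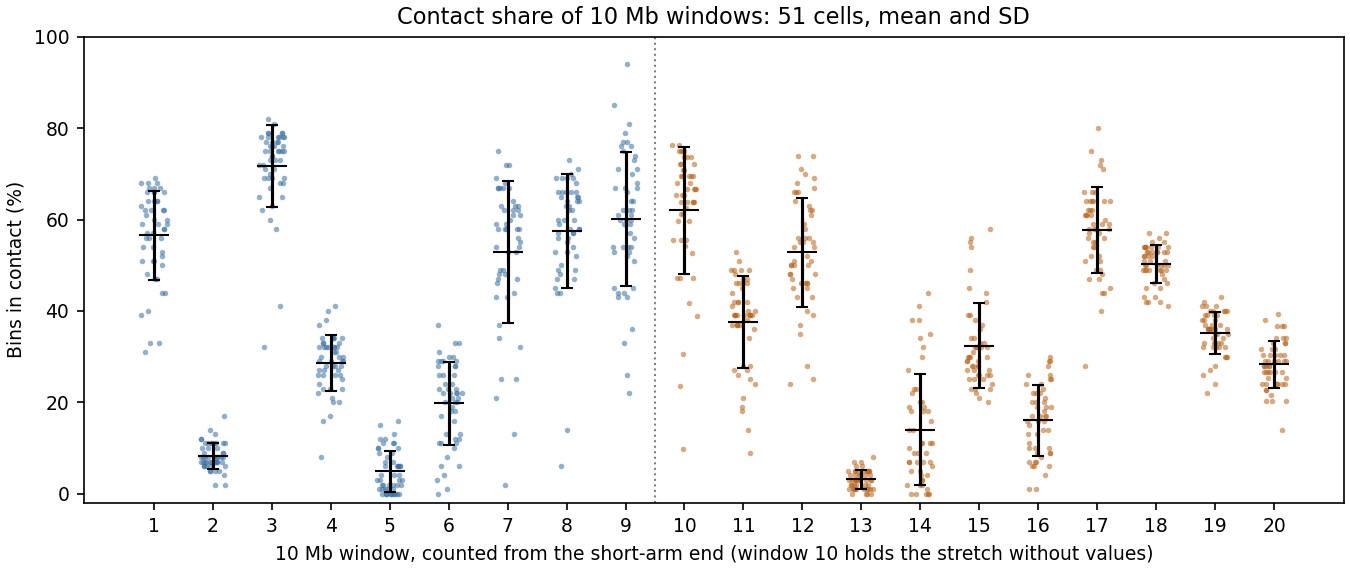
Share of bins in contact (percent) in each of 20 windows of 10 Mb, counted from the short-arm end, for 51 cells (points, short-arm windows in blue) with the mean and SD (bars). Window 3 reaches 71.7% on average and window 13 does not exceed 8.00% in any cell, while window 7 spreads from 2.00% to 75.0%.

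The most frequently contacted regions were 5 runs of at least 1.5 Mb in which every bin touched the lamina in at least 90% of cells. Bins at this frequency numbered 360 on the chromosome (18.5%, against 12.8% of all bins), in 84 runs, and the 5 runs held 127 of them. The longest, from 172800001 to 176200000 on the long arm, had 98.1% ± 3.05 (SD, n = 51) of its bins in contact and a lowest cell of 85.3%. On the same arm, the region from 164500001 to 166900000 was contacted in 97.2% ± 4.22, with a lowest cell of 83.3%. The remaining long-arm run, from 146400001 to 148600000, reached 95.7% ± 6.95.

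The short arm held the other pair. The region from 20400001 to 22900000 was contacted in 96.0% ± 6.60, with 68.0% in the lowest cell. The region from 85000001 to 87200000, the run nearest to the centromere gap, was contacted in 94.3% ± 12.9. Its lowest cell was cell 48, at 40.9%, while 35 of the 51 cells had every bin of it in contact. The rule that chose the runs sets a high floor for each mean, so the likeness of the 5 means is no finding. The spread of the run that starts at 85000001 was the widest of the 5.

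Contact in every analysed cell was found in 34 bins (1.74%, against 0.824% of all bins). On chromosomes 4 and 5 such bins made up 1.91% and 0.510%. For a bin contacted in 51 of 51 cells, the lower exact 95% limit is 93.0%, which ignores that these bins were selected on those counts. Of the 34 bins, 29 lay on the long arm, 14 of them in the run that starts at 172800001 and 6 in the one that starts at 164500001. The longest unbroken row of such bins covered 0.4 Mb, from 175100001 to 175500000, with a mean OE of 3.62. Only 5 lay on the short arm, namely 4 in the run that starts at 20400001 and 1 from 6400001 to 6500000. This count depends on threshold and depth. It was 139 at an OE of at least 0.5, 0 at an OE of at least 2, and 8 after all cells were thinned to the reads of the shallowest.

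Rarely contacted bins formed longer stretches. Bins contacted in at most 5% of cells numbered 829 (42.5%, against 46.7% of all bins), and the 5 longest runs held 359 of them. The longest covered 12.1 Mb of the short arm, from 41900001 to 54000000. Of its 121 bins, 0.113% ± 0.370 (SD, n = 51) were contacted. In 46 cells it held no contact at all, and the highest cell had 1.65%. The next, from 121200001 to 129900000 on the long arm, was contacted in 0.0676% ± 0.357, with 49 cells at 0. The regions from 150100001 to 155700000 and from 12500001 to 17400000 stood at 0.280% ± 0.9697 and 0.320% ± 1.55. In the latter, cell 26 had 10.2% of its bins in contact, and 48 cells had none.

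The fifth, from 193300001 to 197900000 at the long-arm end, had no contact in any of the 51 cells over 46 bins. Bins without a read in any cell made up 95 of the 359 bins in these 5 runs, 19 of them in the last. Their expected number, a whole number per bin recovered from the ratios, is unknown. For bins with reads it had medians of 295.0 to 325.0 in the 5 runs, against 318.0 on the whole chromosome.

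The 750 bins contacted in at least 50% of cells (38.4%; genome 32.1%) formed 74 blocks of uninterrupted bins. Their median length was 0.65 Mb, 33 were at least 1 Mb long and the longest covered 4.5 Mb, from 163200001 to 167700000. Of the 20 blocks of at least 1.5 Mb, 12 lay on the short arm and 8 on the long arm. Mean contact in these 20 ranged from 73.1% to 95.8% of bins. Between 3 and 29 cells were in contact over the whole length of a block, and a cell covered a mean of 6.69 ± 4.26 (SD, n = 51) of the 20 completely, from 0 to 17.

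Long blocks with no contact in a cell were rare. In 15 of the 20 long blocks no cell was without contact, and 10 cells had contact in under 25% of the bins of at least 1 block. Cell 6 had 4 such blocks, of which 2 had no contact at all, and cell 48 had 3. The block with the most such cells lay from 62300001 to 63800000 on the short arm. It was contacted in 73.1% ± 26.7, and 4 cells had under 25%. By comparison the block from 172600001 to 176600000 was contacted in 95.8% ± 3.92.

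Edges of blocks were often abrupt at 100 kb. Contact frequency differed by at least 50 points between 53 of 1948 pairs of neighbouring bins (2.72%), against 1.97% of all neighbouring pairs in the genome. At the steepest, frequency dropped from 90.2% in the bin from 178600001 to 178700000 to 3.92% in the next. The start of a block at 28400001 rose from 11.8% to 94.1%. The bin at 11.8% was a single one between blocks, with 80.4% in the bin before it. Others of the 53 pairs also bordered a single low bin, as at 64400001, 156800001 and 180600001. The bins on either side of the steps at 178700000 and 28400001 had expected numbers of 247, 299, 317 and 258, so none of these was a bin of low expected signal.

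Bins of intermediate frequency also lay side by side. Above 20% and under 80% of cells, 7 runs reached at least 0.8 Mb. The longest, 2.1 Mb from 82200001 to 84300000 on the short arm, had 50.2% ± 31.2 (SD, n = 51) of its bins contacted. It was in full contact in 2 cells and free of contact in 5, and most cells lay between. The run from 134800001 to 135600000 on the long arm was contacted in 35.5% ± 33.7, with 4 cells in full contact and 18 with none. At its neighbour from 136800001 to 137700000, 2 cells were in full contact and 12 had none.

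**Figure D3:**
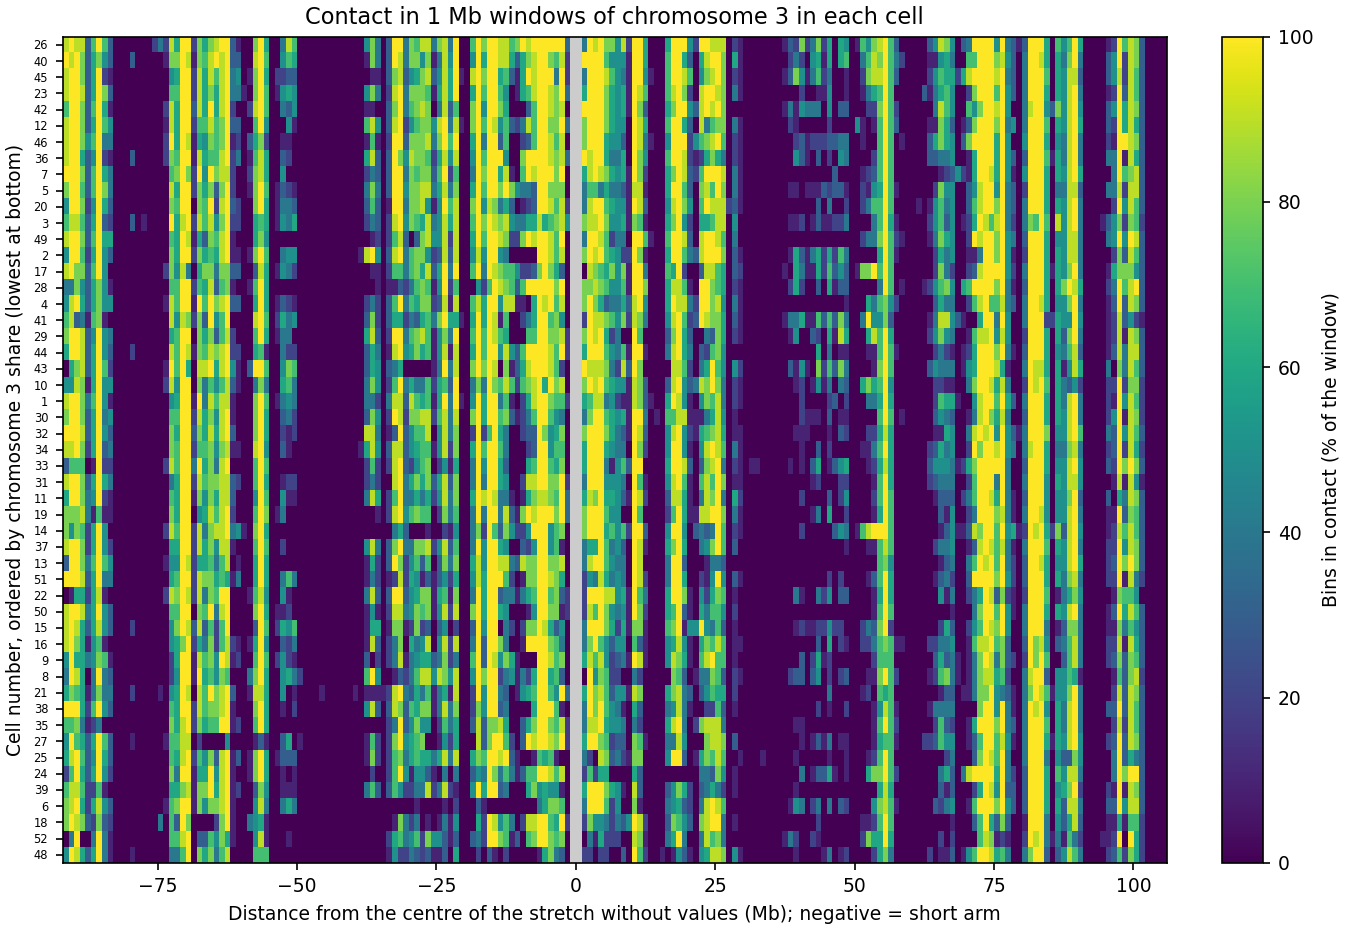
Share of bins in contact (percent, colour) in 1 Mb windows of chromosome 3, by distance from the centre of the stretch without values in Mb (horizontal axis; grey, no values), in each of 51 cells ordered by their share of the chromosome. Most bright columns run through nearly all cells, while cells 6 and 48, near the bottom, are dark over long parts of the short arm that are bright in other cells.

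Both sides of the centromere gap were lined with contact. Values are missing from 90600001 to 93500000, except for 1 bin from 92000001 to 92100000, which held no read and was assigned to neither arm. Bins within 5 Mb of this stretch were contacted in 73.0% ± 11.7 (SD, n = 51), against 35.3% ± 4.63 of the other bins of the chromosome. The difference of 37.7 points ± 9.42 was positive in all 51 cells, from 4.24 in cell 25 to 52.7 in cell 19. The short-arm side stood at 71.9% ± 12.4, from 32.0% in cell 25 to 92.0% in cell 26. The long-arm side stood at 74.1% ± 16.3, from 14.0% in cell 48 to 90% in cell 42. The sides differed by 2.24 points ± 16.9, with the long arm higher in 27 cells and lower in 18, which is within the spread between cells.

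Contact began at different distances from the gap on the 2 sides. On the short arm, the megabase next to the gap was contacted in 32.0% ± 19.2, and the following ones in 82.0% ± 23.1, 67.5% ± 14.0, 83.5% ± 12.9 and 94.5% ± 15.7. Frequency fell bin by bin towards the gap, from 68.6% at 89800001 to 39.2%, 37.3% and 17.6% in the next 3 bins, and the expected numbers of these 4 bins were 280, 217, 284 and 256. It was 1.96% at 90200001, where the expected number was 103, and 0 in the next bin, where it was 53. The last 2 bins before the gap held no read. On the long arm the first megabase already stood at 71.6% ± 19.4. Its first bin, with an expected number of 90, was contacted in 47.1% of cells. The bins at 93600001 and 93700001, with expected numbers of 188 and 258, were contacted in 33.3% and 17.6%. From 93800001 onwards frequency was 80.4% or higher through the rest of that megabase.

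Farther out the flanks were uneven. From 7 to 8 Mb on the short arm contact was 47.6% ± 32.8, and from 9 to 10 Mb it was 14.3% ± 21.4. On the long arm it was 38.2% ± 18.3 from 4 to 5 Mb, still within the 5 Mb flank. It was 8.43% ± 11.6 from 6 to 7 Mb and 92.2% ± 15.0 from 9 to 10 Mb. In steps of 5 Mb the short arm gave 71.9%, 45.5%, 69.3%, 39.5% and 48.3%, and the long arm 74.1%, 51.6%, 13.4%, 58.3% and 67.7%. Contact therefore did not fall steadily with distance on either arm.

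The same 5 Mb flanks on chromosomes 4 and 5 were contacted less. On chromosome 4, beside a stretch from 49700001 to 52600000, the flank share was 33.5% ± 6.87 and that of other bins 44.2% ± 5.01. Its short-arm side stood at 55.5% ± 7.23 and its long-arm side at 11.5% ± 9.89. On chromosome 5, beside a stretch from 46400001 to 49400000, flank and other shares were 48.8% ± 7.20 and 36.2% ± 5.83. Its short-arm side stood at 62.9% ± 9.66 and its long-arm side at 34.8% ± 7.62. Expected numbers next to the stretch were partly low. In the first short-arm megabase of chromosome 4 their median was 9.5, and 2 bins held no read. In the first short-arm and long-arm megabases medians were 152.5 and 161.5 on chromosome 5, against 236.5 and 300 on chromosome 3. Flank minus other was larger on chromosome 3 than on chromosome 4 in all 51 cells, by 48.4 points ± 11.0, and larger than on chromosome 5 in 49 of 51 cells, by 25.1 points ± 10.8. With cells of 1 sample these differences have no test.

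**Figure D4:**
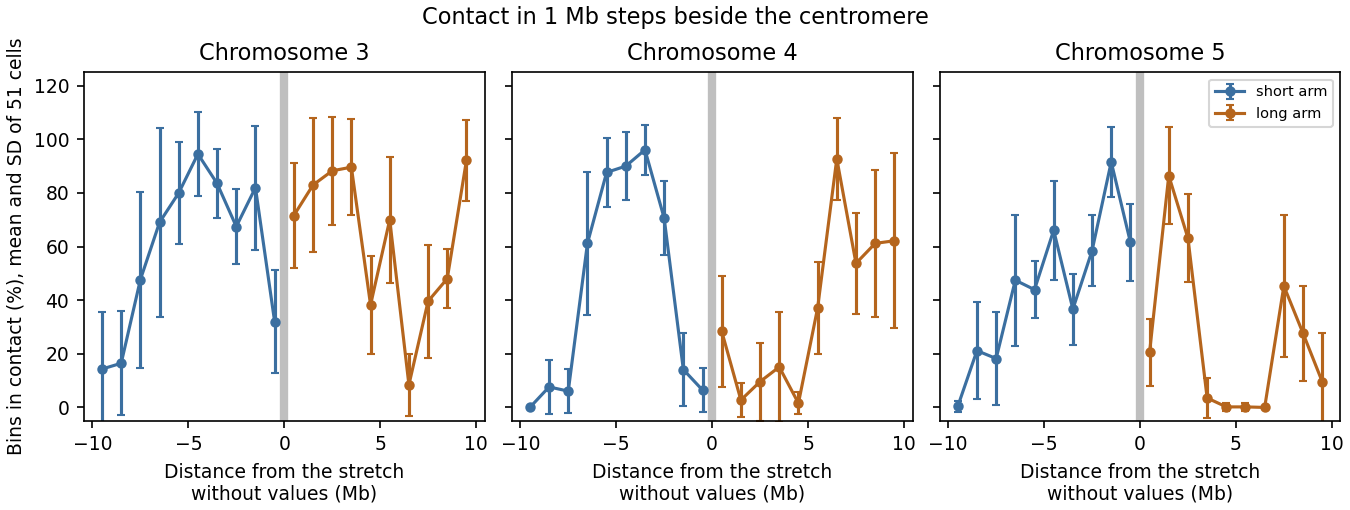
Share of bins in contact (percent; mean and SD of 51 cells) in 1 Mb steps from the stretch without values, on the short arm (negative distances) and long arm of chromosomes 3, 4 and 5. On chromosome 3 steps from 1 to 4 Mb are between 67.5% and 89.6% on both sides. Its short-arm step next to the stretch is at 32.0% and its long-arm step from 4 to 5 Mb at 38.2%. The short-arm side of chromosome 4 reaches 96.1% from 3 to 4 Mb, whereas its long-arm side stays at 28.4% or less up to 5 Mb.

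A few cells had little contact beside the gap. Flank contact was lowest in cells 48, 25 and 52, at 29.0%, 37.0% and 50.0%, and highest in cells 26 and 19, at 89.0% and 87.0%, followed by cells 12 and 23 at 86.0%. In cell 52 only the long-arm side was low, at 26.0%, with 74.0% on the short arm. Cell 25 was low on both sides, with 32.0% and 42.0%, while its window from 70 to 80 Mb stood at 69.0%. Over the 51 cells, the sides correlated weakly (r = 0.331 by Pearson and rho = 0.277 by Spearman). Leaving out cells 25 and 39, the 2 farthest from the median on the short-arm side, gave an r of 0.337. Cell 48, the lowest on the long-arm side, stayed in. After each cell's genome share was subtracted, r over the 51 cells was 0.262 and rho 0.128. The points share cell and depth, and these values are descriptions.

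The low share of cell 48 was concentrated around the gap. From 60 to 100 Mb it had contact in 17.2% of bins, where the mean of cells was 57.8% ± 10.8 (SD, n = 51) and the lowest other cell had 23.4%. On the rest of the chromosome it had 26.2%, against 32.4% ± 4.02. Its reads numbered 106780, and its genome share was 28.4% against a mean of 31.5%. Cell 6 had 4.00% from 60 to 80 Mb (mean 55.2% ± 13.1, lowest other cell 17.5%) and 32.4% on the rest of the chromosome, near the mean of 35.2%.

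Other cells were low in other parts. Cell 27 had 20.0% from 20 to 40 Mb (mean 50.1%), cell 24 had 16.5% from 100 to 120 Mb (mean 45.2%), and cell 52 had 28.0% from 160 to 170 Mb (mean 57.7%). These parts were chosen after their values were seen. Cell 26, the deepest of all, had the highest share of the chromosome. Over cells, share and reads correlated with an r of 0.541 and a rho of 0.546. Without cells 26 and 49, the 2 farthest from the median in reads, r was 0.460.

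The 2 ends of the chromosome were opposite in contact. Within 5 Mb of the outermost measured bins, the short-arm end was contacted in 69.3% ± 13.2 (SD, n = 51), from 28.0% in cell 52 to 84.0% in cell 32. The long-arm end was contacted in 7.22% ± 1.501, from 2.00% to 8.00%. The difference of 62.1 points ± 12.8 had this direction in all 51 cells, and the cells of the 2 ends did not overlap. Of the 50 bins of the long-arm end, 19 held no read in any cell, against 0 of the short-arm end. Taken as 1 class the ends stood at 38.3% ± 6.90, against 37.2% ± 4.93 for other bins. That difference of 1.07 points ± 7.00 was within the spread between cells, and it was -2.56 points at an OE of at least 0.5 and 8.50 without bins that held no read.

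Contact at the short-arm end began close to the tip. The first bin had an expected number of 27 and was contacted in 25.5% of cells. The block from 100001 to 3100000 had 84.4% ± 16.9 of its bins contacted, with 12 cells in contact throughout. From 1 to 2 Mb and from 2 to 3 Mb the share was 89.0% ± 20.0 and 91.0% ± 14.3, and from 4 to 5 Mb it was 26.1% ± 10.8. On the long arm, the outer 4 Mb had no contact call in any cell, and from 4 to 6 bins of each megabase there held no read. The edge lay at 193300001, where frequency dropped from 78.4% to 0 between neighbouring bins with expected numbers of 301 and 294.

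On chromosome 4 the long-arm end was contacted more than the short-arm end in all 51 cells, opposite to chromosome 3. On chromosome 5 the short-arm end was higher in 50 of 51 cells, by 24.7 points ± 11.9, as on chromosome 3 but by less. The short-arm ends of chromosomes 4 and 5 were contacted in 0.0392% ± 0.280 and 24.8% ± 12.0, both below the short-arm end of chromosome 3 in all 51 cells. Their long-arm ends stood at 36.4% ± 16.4 and 0.0784% ± 0.392.

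**Figure D5:**
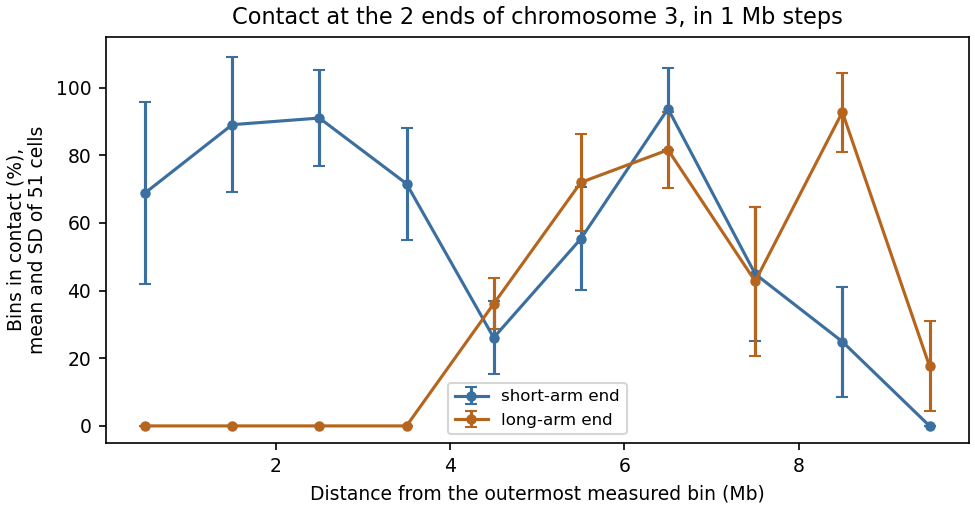
Share of bins in contact (percent; mean and SD of 51 cells) in 1 Mb steps from the outermost measured bin at the short-arm and the long-arm end of chromosome 3. The outer 4 Mb of the long arm, which include bins without a read, are at 0. The steps from 1 to 2 Mb and from 2 to 3 Mb of the short arm reach 89.0% and 91.0%.

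The arms differed less than the ends. The short arm (906 bins) was contacted in 39.8% ± 5.79 (SD, n = 51) and the long arm (1044 bins) in 35.0% ± 5.02. The short arm was higher in 43 of 51 cells, by 4.81 points ± 4.89. The lowest difference was -10.4 points, in cell 6. Of the short arm, 29.9% of bins reached 80% of cells, and of the long arm 25.3%, while bins contacted in all cells made up 0.552% and 2.78%. Thus the arm with less contact held more of the bins contacted everywhere. On chromosome 5 the short arm exceeded the long arm by 21.9 points ± 7.20, and on chromosome 4 the difference was -1.89 points ± 5.43.

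Contact of the arms varied together from cell to cell. Their shares correlated over the 51 cells with an r of 0.599 and a rho of 0.568. Without cells 6 and 48, the 2 farthest from the median in short-arm share, r was 0.612. Cell 42 stayed in, with arm shares of 42.9% and 42.7% beside a genome share of 24.1%, the lowest of all cells. After each cell's genome share was subtracted, r over the 51 cells was 0.429 and rho 0.396. Between windows of 10 Mb, treated in the same way, the mean r was 0.379 over 19 pairs next to each other, 0.189 over 51 pairs that lay 2 to 4 windows apart and 0.116 over 120 pairs farther apart. The highest, 0.702, joined the windows from 60 to 70 and from 70 to 80 Mb. The lowest, -0.356, joined the former and the window from 190 Mb to the end. A high value was not limited to near windows, since those from 10 to 20 and from 120 to 130 Mb, 11 windows apart, gave 0.664. Both had little contact, with SDs of 2.87 and 2.01 points before subtraction, below the 3.56 of the genome share subtracted from them. Windows share cell, depth and subtracted value, and these correlations are descriptions.

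Contact was also traced as uninterrupted runs within single cells. The 51 cells had 6115 runs on chromosome 3, of which 31.4% were 1 bin long and 20.1% were at least 1 Mb long, the latter holding 61.7% of the contacted bins. The mean length in a cell was 0.619 Mb ± 0.125 (SD, n = 51), from 0.346 Mb in cell 48 to 0.871 Mb in cell 26. Chromosome 4 gave 0.616 Mb ± 0.108 and chromosome 5 gave 0.557 Mb ± 0.108. Chromosome 3 exceeded them in 24 and 38 of 51 cells. Run length followed threshold and bin size, with 0.355 Mb at an OE of at least 2 and 2.19 Mb with bins of 500 kb.

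The longest run on the chromosome covered 6.6 Mb from 83600001 to 90200000 in cell 26, reaching close to the centromere gap. Runs of at least 5 Mb numbered 8, in 7 cells. Of these, 4 ended on the short arm between 80 Mb and the gap and 4 lay between 160 and 170 Mb. Runs of at least 3 Mb were found in 42 cells, and in 37 cells such a run overlapped the region that starts at 172800001.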

How the data were processed

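Per the submitters' processing notes, cutadapt and Bowtie2 2.1.0 were used with hg19. The authors' deposited values are ratios (observed over expected, OE) with 30376 rows, each a bin of 100 kb, and a column for every cell. Neither the making of the expected value nor the treatment of duplicates is given in the sources used here. Of 52 cells in the labels, 51 were analysed and cell 47 was not. Only the 26584 bins with a value in every cell were used. Reads were recovered as whole numbers times a factor of the cell over a whole number of the bin. Of values above 0, 100% gave a whole number with a tolerance of 0.02 reads. The total is the depth, and it sets the precision. Recovery, flank differences and runs were tested on simulated data.

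Contact was an OE of at least 1. Named were all runs of at least 1.5 Mb at 90% of cells, the 5 longest runs at 5%, 10 Mb windows, flanks in 1 Mb and 5 Mb steps, and the cells with the 3 highest and 3 lowest shares, plus cell 42. Blocks at 50%, runs of 20% to 80%, steep edges and cells low in 1 part were added after values were seen. The members, lists and rules were chosen with earlier results of these data known. Alternatives were other OE thresholds, widths, bin sizes, depths and cells. Genes were not placed in bins, since gene coordinates of hg19 were not used here. Python 3.11.15, numpy 2.4.6, pandas 2.3.3 and scipy 1.17.1 were used.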

Additional observations from a re-analysis of the deposited data

How the results depend on the processing

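Of 100 values of the whole chromosome under the alternatives run, 88 kept their direction and stayed within 1 SD of the cells, or within 1.5 times for shares of bins. The difference of ends from other bins reversed to -2.56 points at an OE of at least 0.5, and was 8.50 points without bins that held no read and 9.09 with ends of 10 Mb. The contact share was 44.7% at an OE of at least 0.5 and 24.3% at an OE of at least 2, where 7.02% of bins reached 80% of cells. The flank difference was 27.0 points at an OE of at least 2 and 26.2 with flanks of 10 Mb. The mean run length was 0.763 Mb and 0.355 Mb at these thresholds, 0.456 Mb after thinning and 2.19 Mb with bins of 500 kb. Shifts with a threshold, a bin size or a width follow from that setting, and for the others the cause was not tested. The difference from the genome stayed between 4.35 and 6.55 points and that of the arms between 2.36 and 5.64. In the 5 frequently contacted runs contact was 75.6% to 86.4% at an OE of at least 2 and 89.1% to 94.4% after thinning. In the 5 rarely contacted runs it was at most 2.28% at an OE of at least 0.5. Leaving out cell 48 was chosen after seeing the data. No paired analysis was possible because there is 1 group. Depth limits calls in single bins of shallow cells. No gene list was run.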
